A study of Mus musculus with 15 samples.

Results

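The common gamma chain receptors are the cytokine receptors that share the chain encoded by Il2rg, and their genes were followed here through the earliest steps of innate lymphoid cell (ILC) development in mouse bone marrow. The genes were chosen by name: Il2rg, Il2rb, Il7r and Il21r, with Il2ra and Il4ra where a row existed. Of the 6 genes named, 5 had a row among the 12798 genes of the table used here, and all 5 were among the 12572 genes tested. Il2ra was not analysed here.

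The shared gamma chain does not bind cytokine well on its own. It pairs with another chain. This is the IL-7 receptor alpha chain (Il7r) for IL-7, and for IL-2 and IL-15 the beta chain (Il2rb), which their receptors share. For IL-21 it is the IL-21 receptor (Il21r), and for IL-4 the IL-4 receptor alpha chain (Il4ra). The kinases JAK1 and JAK3 sit on that other chain and on the gamma chain, respectively, and activate STAT proteins. Mice without the gamma chain or the IL-7 receptor have few ILCs, and IL-15 acting through the beta chain sustains natural killer (NK) cells.

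RNA was sequenced from 15 libraries of C57BL/6 bone-marrow cells sorted as Lin-, Kit+ and 2B4+, in 6 groups. ALP, the lymphoid progenitor (n = 3, genotype Tcf7EGFP/+), was a4b7-, Flt3high and IL-7Ra+. The early ILC progenitor (EILP) was sorted as a4b7+ Tcf7+ Thy1- cells, without a gate on IL-7Ra. EILP_WT (n = 3) had the genotype Tcf7EGFPnull/+, so these controls carried a null allele too, and EILP_KO (n = 2) had Tcf7EGFPnull/-. From mice labelled Tcf7GFP Zbtb16GFP, that gate was split into s-EILP (n = 2, Zbtb16low Flt3high) and c-EILP (n = 3, Zbtb16high Flt3low). ILCP, the ILC progenitor (n = 2, Tcf7EGFP/+), was a4b7+, Tcf7+, Thy1+ and IL-7Ra+. ALP and ILCP share a genotype, as do s-EILP and c-EILP. In the other comparisons without EILP_KO, stage and reporter strain cannot be told apart, nor, where EILP_WT is used, its null allele. EILP_KO differs from ALP in stage, strain and loss of Tcf7, which cannot be told apart either. The labels give no age or sex and do not state whether each replicate came from its own animal; the spread behind each p-value is therefore that of these samples, which may be technical.

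Values are log2 expression as deposited, on which a step of 1 is a doubling. Whether they are scaled by gene length is not given in the sources used here, so levels are compared between groups for the same gene and not between genes. Each library has a lowest value between -4.83 and -4.41 that 747 to 2575 of its genes share, most of them in EILP_WT replicate 3, and folds against a group that lies there throughout are left out. Tcf7 ran from 9.89 to 11.34 in the libraries of EILP_WT, s-EILP, c-EILP and ILCP, from 6.97 to 7.65 in EILP_KO and from 1.91 to 2.64 in ALP. Thy1 was highest in ILCP, at 4.85 and 4.99. In bulk RNA, fewer cells that express a gene and less RNA per cell cannot be told apart.

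Il2rg (ENSMUSG00000031304.18) lies on chromosome X at 101264378 to 101268255 on the minus strand of GRCm38 (mm10), in the GENCODE M21 annotation. Il7r (ENSMUSG00000003882.5) and Il2rb (ENSMUSG00000068227.9) are both on the minus strand of chromosome 15, at 9505788 to 9530176 and at 78479256 to 78495271. Il4ra (ENSMUSG00000030748.9) and Il21r (ENSMUSG00000030745.9) are neighbours on the plus strand of chromosome 7, at 125552120 to 125579474 and at 125603429 to 125633570, with 23954 bases between them.

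Il2rg and Il21r are the members that changed in opposite directions between the EILP gates and ILCP, and the 250 bases before their start sites are shown for that reason. The sequences are from RefSeq (GRCm38.p6), where 4 of the 5 members had an entry, and lie at chrX:101268256-101268505 (minus strand) and chr7:125603179-125603428 (plus strand), outside annotated exons. Capitals mark matches to 6 short strings, each searched on both strands. For STAT factors the string was TTCNNNGAA. For the TCF/LEF family, to which the Tcf7 product belongs, it was either CTTTGA or, as a further form of the same site, CTTTGT. For GATA factors the letters were GATAAG, for RUNX factors they were TGTGGT, and for factors of the ETS family they were GGAAGT. The printed matches overlap no other match.
Il2rg: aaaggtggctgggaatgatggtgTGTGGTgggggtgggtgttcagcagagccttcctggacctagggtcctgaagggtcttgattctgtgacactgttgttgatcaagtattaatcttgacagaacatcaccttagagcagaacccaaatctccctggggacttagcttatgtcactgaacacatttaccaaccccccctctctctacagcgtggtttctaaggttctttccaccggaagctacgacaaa
Il21r: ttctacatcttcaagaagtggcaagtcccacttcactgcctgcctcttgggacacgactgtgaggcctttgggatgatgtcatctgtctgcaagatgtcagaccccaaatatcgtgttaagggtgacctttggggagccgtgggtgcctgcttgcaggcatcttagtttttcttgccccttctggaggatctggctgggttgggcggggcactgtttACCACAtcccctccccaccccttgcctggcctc

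Each of these windows holds 1 match, to the RUNX string, with its first base at -227 in Il2rg and at -33 in Il21r, where it reads on the opposite strand. Of 32851 promoter windows of this length, 14.0% hold that string. The Il7r window, which runs partly through annotated exons and is not printed, holds a STAT match (TTCAGGGAA) at -142 and an ETS match at -49. The STAT string occurs in 7.02% of windows and the ETS string in 19.7%. The TCF/LEF strings, in 13.8% and 16.5% of windows, and the GATA string, in 6.55%, were not found in the 4 windows searched, and the Il4ra window had no match. A match is a run of letters and not a measured binding site.

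**Figure D1:**
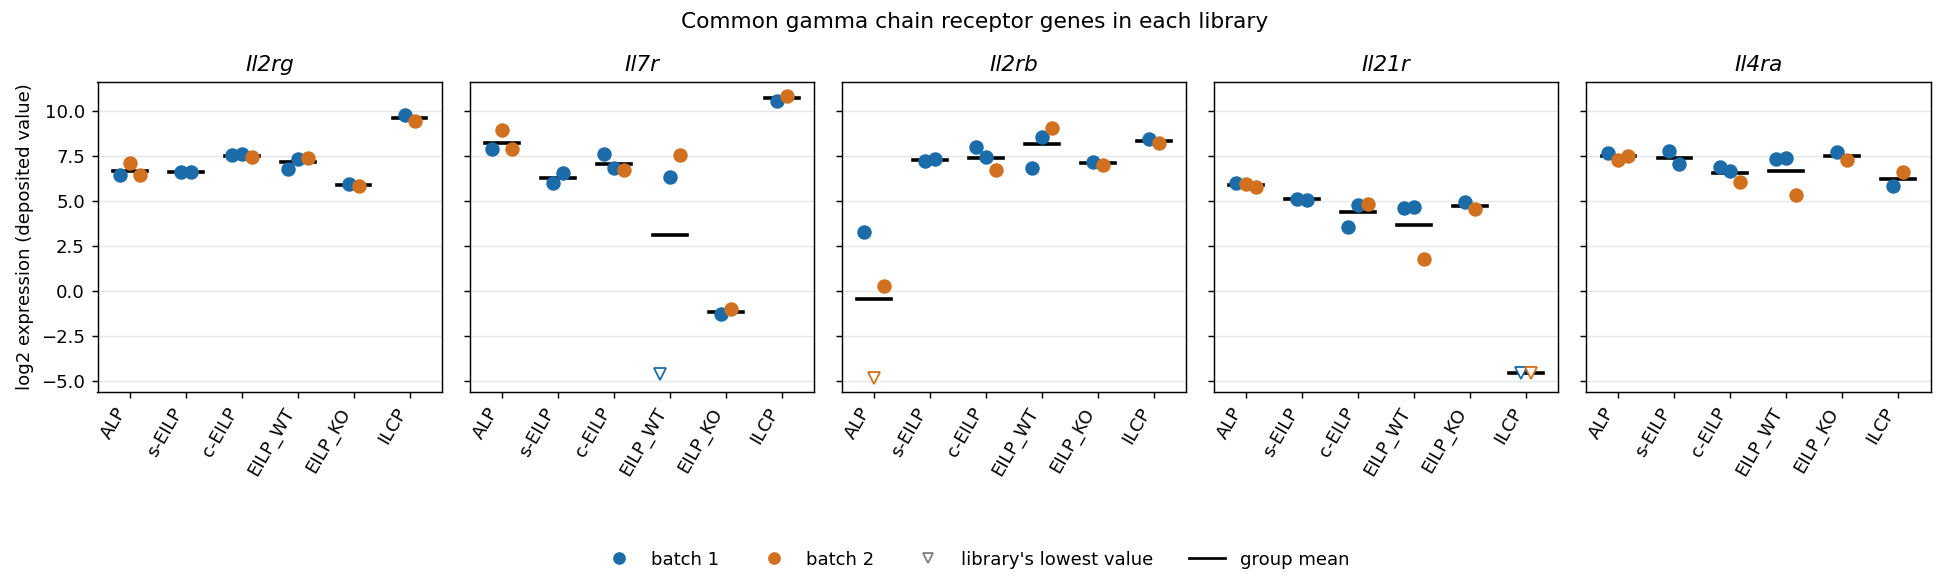
Log2 expression (y axis, deposited values) of the 5 receptor genes in each of the 15 libraries, by group (x axis). Points are libraries coloured by batch, open triangles lie at the lowest value of their library, and lines are group means. Il2rg stands highest in ILCP, Il21r lies at the lowest value there, Il2rb is low in ALP alone, and Il7r is below 0 in both EILP_KO libraries and at the lowest value in EILP_WT replicate 1.

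Counted over the 5 members, all calls in the 9 comparisons involved ILCP or Il2rb. Calls are adjusted p-values under 0.05 from limma over all tested genes. From ALP to EILP_WT, 1 member rose and 0 fell, where 1.71% of all tested genes rose and 1.50% fell. From ALP to c-EILP, 1 rose and 0 fell (1.97% and 2.03% of all genes), and from ALP to EILP_KO likewise 1 rose and 0 fell (0.605% and 0.724%). From ALP to ILCP, 2 rose and 1 fell (5.56% and 7.86%). From EILP_WT to ILCP, 1 rose and 1 fell (2.61% and 4.34%), and from c-EILP to ILCP also 1 rose and 1 fell (2.69% and 4.72%).

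In the other 3 comparisons no member passed the limma threshold. These were s-EILP vs ALP (0.493% of all genes rose and 0.310% fell), c-EILP vs s-EILP (0 of all genes passed, with 647 at an unadjusted p under 0.05) and EILP_KO vs EILP_WT (0.0477% and 0.0557%). In each of them 1 member had an unadjusted p under 0.05, as had 1148, 647 and 1094 of all tested genes, in that order. The median log2 fold change over the members was -0.98 from ALP to EILP_WT and 2.73 from ALP to ILCP, against -0.01 and -0.09 over all genes. It was -0.85 in EILP_KO vs EILP_WT, against 0.04 over all genes. Each of these medians is the value of 1 member, Il4ra, Il7r and Il2rb in that order, which did not pass there. Members moved in both directions in each of these comparisons, so the medians show no shift of the members as a set. The comparisons with ALP share its libraries, as those with ILCP and with EILP_WT share theirs.

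Il2rg, the shared chain, was highest in ILCP. It was 6.45, 7.12 and 6.47 in ALP, 6.62 and 6.64 in s-EILP, and 7.55, 7.59 and 7.43 in c-EILP. The EILP_WT libraries had 6.77, 7.34 and 7.40. It was 5.93 and 5.85 in EILP_KO and 9.79 and 9.44 in ILCP. The ILCP libraries lay above every other library, and the EILP_KO libraries below every other.

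From EILP_WT to ILCP, Il2rg rose 5.41-fold, or by 2.44 on the log2 scale (SE 0.25, limma adjusted p = 0.000158). From c-EILP it rose by 2.08 (SE 0.25, adjusted p = 0.000487), or 4.24-fold. From ALP, which has the genotype of ILCP, it rose by 2.94 (SE 0.25, adjusted p = 2.44e-05), or 7.70-fold. Il1rl1, the 1 mature ILC2 marker of 5 with a row, stood at 244 to 268 in ILCP on the linear scale (2 to the power of the value, with lowest values as 0), at 0 to 10.3 in ALP, at 0 to 1.16 in s-EILP, and at 0 in c-EILP, EILP_WT and EILP_KO. Its part in the rise was not tested. Within batch 1 alone, which holds only replicate 1 of ILCP and of ALP, Il2rg rose by 2.73 from EILP_WT, 2.22 from c-EILP and 3.34 from ALP. In batch 2 alone, which holds only replicate 2 of ILCP, these rises were 2.04, 2.01 and 2.64 and did not pass. In fits of the 2 groups alone, the rises from EILP_WT and from c-EILP did not pass (limma adjusted p = 0.116 and 0.0725).

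Among the earlier stages Il2rg differed less. In order of mean, EILP_KO (5.89), s-EILP (6.63), ALP (6.68), EILP_WT (7.17) and c-EILP (7.52) stood below ILCP (9.61). The libraries of s-EILP and ALP overlapped, as did those of ALP and EILP_WT. Those of c-EILP lay above those of s-EILP by 0.88 (SE 0.26, adjusted p = 0.681) and above those of ALP by 0.86 (SE 0.23, adjusted p = 0.0653), and neither difference passed. The difference from ALP passed with sample quality weights (adjusted p = 0.0295) and without ALP replicate 2 (adjusted p = 0.0323) or EILP_WT replicate 1 (adjusted p = 0.0491, with 4.04% of all genes passing).

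In Tcf7-null EILP the Il2rg values lay below those of EILP_WT without overlap. The difference of -1.29 (SE 0.25, 95% interval -1.84 to -0.73) had an unadjusted p of 0.000285 and missed the threshold over all genes (adjusted p = 0.128). Against c-EILP, a pair taken up after the values were seen and with another reporter strain, Il2rg was 1.64 lower (SE 0.25, adjusted p = 0.024, where 0.215% of all genes fell). Against ALP it was -0.78 (SE 0.25, adjusted p = 0.192).

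**Figure D2:**
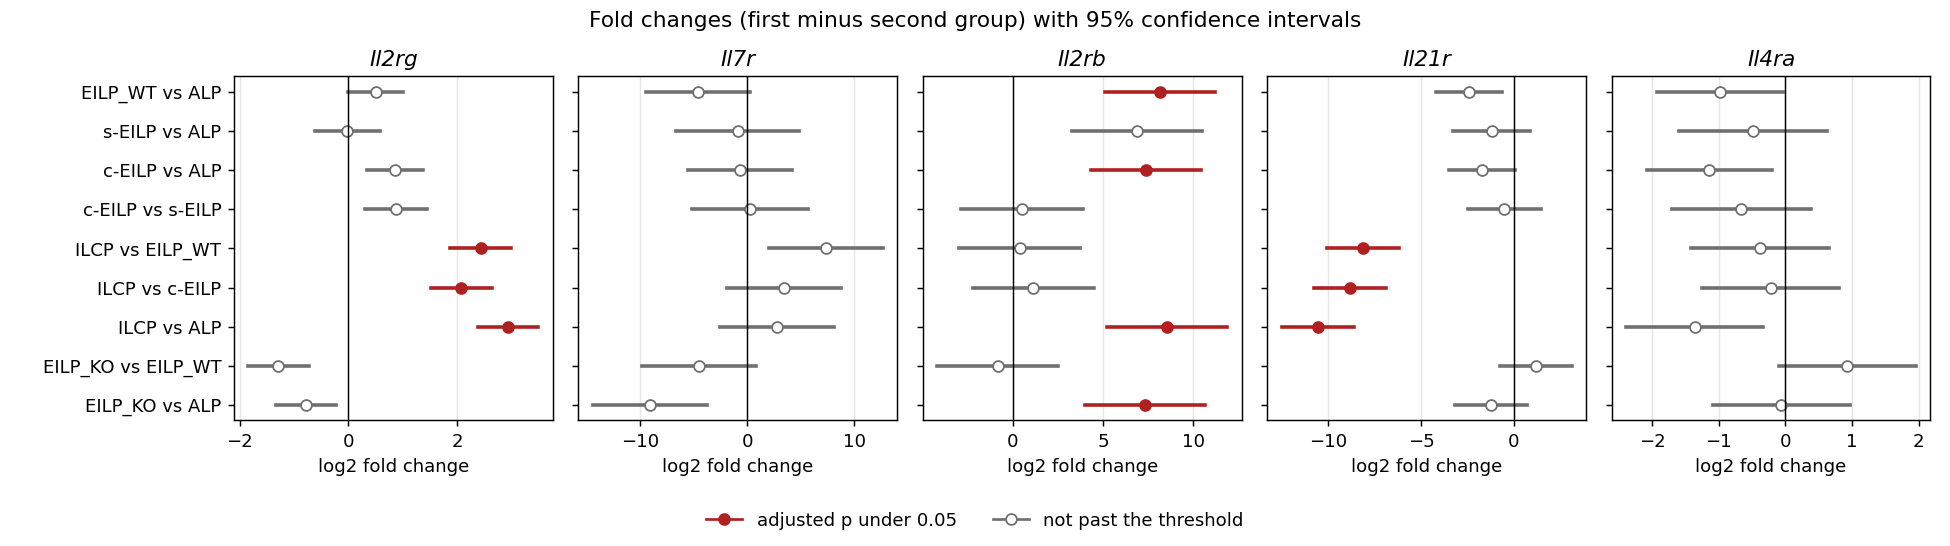
Log2 fold changes (x axes, first minus second group; the scale differs between panels) of the 5 receptor genes in 9 comparisons (y axis), with 95% confidence intervals from limma. Filled red points passed an adjusted p of 0.05. Il2rg and Il21r passed in all 3 comparisons with ILCP and in opposite directions, Il2rb passed in 4 comparisons with ALP, and Il4ra and Il7r passed in none; the Il21r values with ILCP run against a group at the lowest value and are no measure of size.

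Il7r encodes the IL-7 receptor alpha chain, which also serves the receptor for TSLP. It was 7.91, 8.95 and 7.89 in ALP, and 10.58 and 10.84 in ILCP, the groups sorted for the protein, so these levels check the gate. In the EILP gates, where the protein was not selected, it was 6.03 and 6.56 in s-EILP and 7.59, 6.85 and 6.70 in c-EILP. EILP_WT held it at -4.60 (the lowest value of replicate 1), 6.34 and 7.58. In EILP_KO it was -1.30 and -0.99.

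EILP_KO therefore lay below every library of ALP, s-EILP, c-EILP and ILCP, and below EILP_WT replicates 2 and 3 but above replicate 1. Over all libraries Il7r in EILP_KO differed from EILP_WT by -4.52 (SE 2.44, 95% interval -9.84 to 0.80, adjusted p = 0.625) and from ALP by -9.13 (SE 2.44, adjusted p = 0.101). Neither passed, and ILCP, higher than EILP_WT by 7.34 and than c-EILP by 3.40, did not pass against either (adjusted p = 0.0968 and 0.455). With values below 0 set to 0, EILP_KO vs ALP and ILCP vs EILP_WT passed (-8.08, adjusted p = 0.0125, and 5.9, adjusted p = 0.0244). ILCP vs EILP_WT also passed without EILP_WT replicate 2 or 3 (9.22 and 9.78, limma adjusted p = 0.0485 and 0.0446). ALP and ILCP were sorted for the protein and the EILP groups were not. In Il7r comparisons between them, that sort cannot be told apart from the other differences of the groups.

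A single library set the error of Il7r in every comparison of this fit. Without EILP_WT replicate 1 the SE of EILP_KO vs EILP_WT went from 2.44 to 0.46. The difference was then -8.11 (95% interval -9.13 to -7.09, adjusted p = 3.17e-05), with 0.0400% of all genes passing, while without replicate 2 or 3 it was -2.64 or -2.08 and did not pass. EILP_KO vs ALP became -9.34 (SE 0.42, adjusted p = 2.85e-06, 1.49% of all genes). ILCP vs EILP_WT became 3.75 (SE 0.46, adjusted p = 0.00116, 5.14%), ILCP vs c-EILP 3.61 (SE 0.42, adjusted p = 0.000695, 7.58%) and ILCP vs ALP 2.51 (SE 0.42, adjusted p = 0.00345, 13.8%). This library was singled out for its Il7r value, so these figures describe what it does to the fit and are not support for a difference. Where ALP or ILCP is set against an EILP group, they also hold the sort for the protein.

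The same Il7r comparison differed between batches. In batch 1, which holds EILP_WT replicates 1 and 2, EILP_KO vs EILP_WT was -2.17 (adjusted p = 0.941), and in batch 2, with 1 library in each group, -8.57 (adjusted p = 0.165). In order of mean, Il7r ran from EILP_KO (-1.14) through EILP_WT (3.11 ± 6.70 SD), s-EILP (6.30), c-EILP (7.05) and ALP (8.25) to ILCP (10.71). EILP_WT overlapped EILP_KO, s-EILP and c-EILP. The libraries of s-EILP, c-EILP, ALP and ILCP did not overlap, although c-EILP differed from s-EILP by 0.23 (95% interval -5.18 to 5.63) in the fit and none of these neighbours passed in the fit of all libraries. In a fit of ILCP and ALP alone, Il7r passed (2.53, adjusted p = 0.0496).

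**Figure D3:**
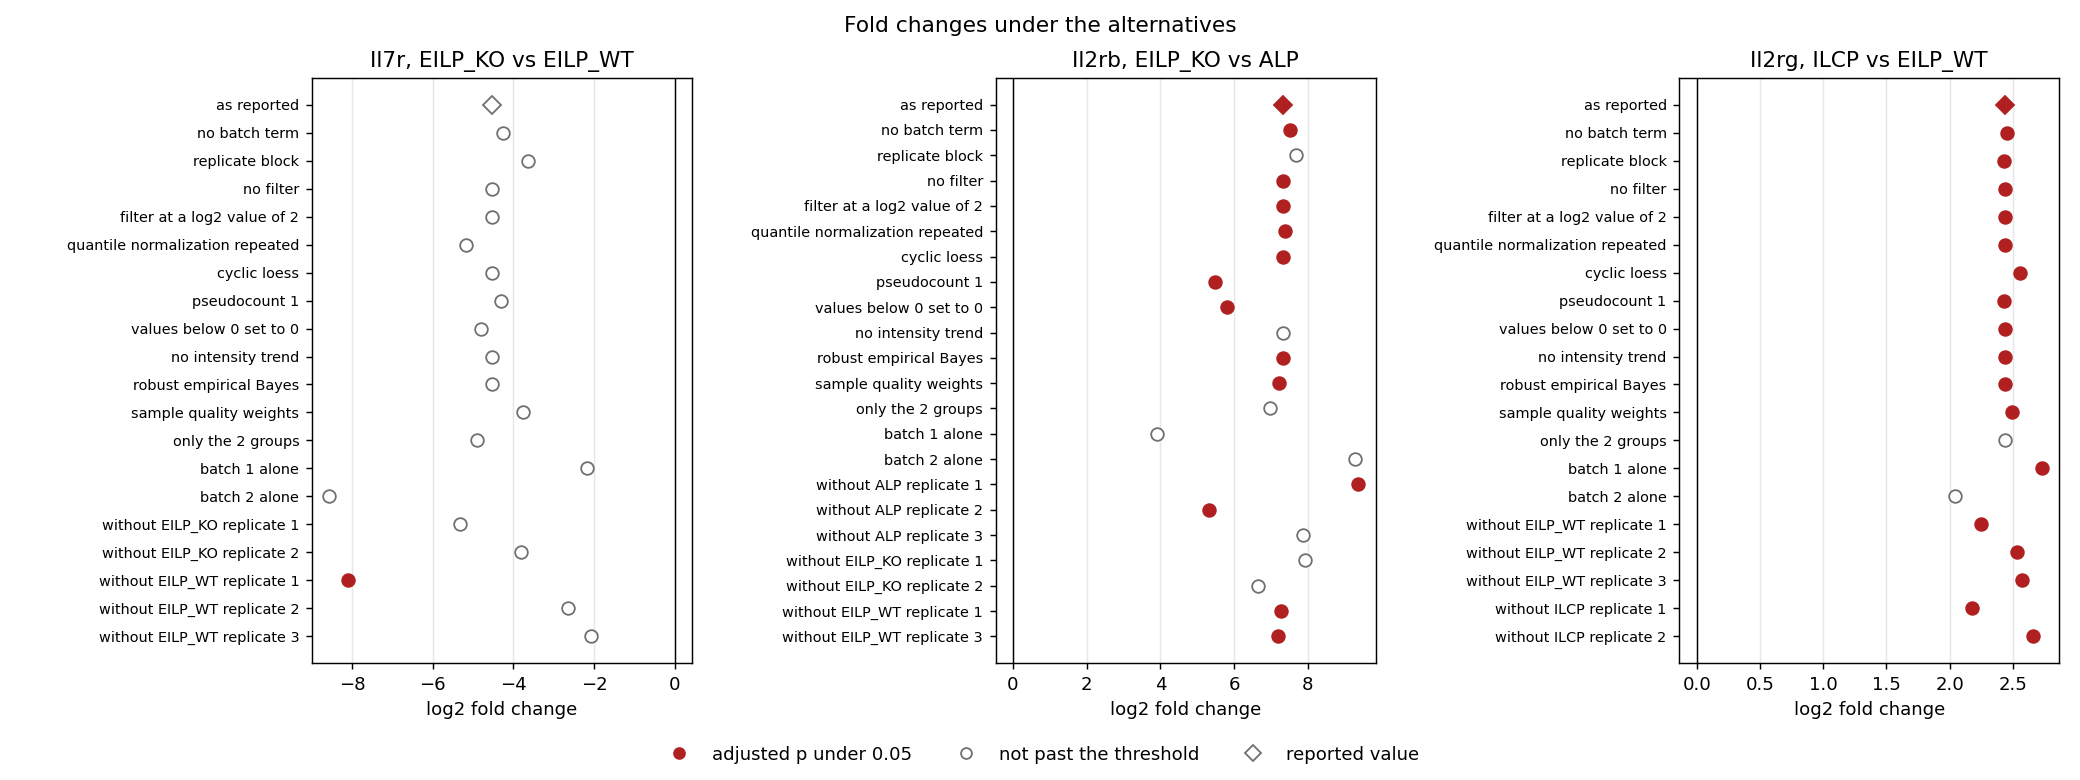
Log2 fold changes (x axes) of Il7r in EILP_KO vs EILP_WT, Il2rb in EILP_KO vs ALP and Il2rg in ILCP vs EILP_WT under each alternative (y axes). Filled red points passed an adjusted p of 0.05 and diamonds are the values reported. Il7r passed only without EILP_WT replicate 1, at -8.11, Il2rb lay between 3.91 and 9.37, and Il2rg between 2.04 and 2.73.

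Il2rb, the chain that binds IL-2 and IL-15 together with the gamma chain, was low in ALP and high in every other group. It was 3.26, -4.83 (the lowest value of replicate 2) and 0.28 in ALP. In s-EILP it was 7.21 and 7.34, in c-EILP 7.98, 7.47 and 6.70, in EILP_WT 6.82, 8.57 and 9.05, in EILP_KO 7.17 and 7.02, and in ILCP 8.44 and 8.21. Every library outside ALP lay above every ALP library, those of the Tcf7-null cells included.

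Against ALP, Il2rb rose by 8.17 in EILP_WT (SE 1.40, limma adjusted p = 0.00841), by 7.41 in c-EILP (SE 1.40, adjusted p = 0.0114) and by 8.55 in ILCP (SE 1.53, adjusted p = 0.00367). In EILP_KO it rose by 7.32 (SE 1.53, adjusted p = 0.0383). In s-EILP the difference of 6.89 (SE 1.65, adjusted p = 0.11) did not pass, but it passed with a pseudocount of 1 (5.34, adjusted p = 0.00749). The size depends on ALP libraries at or near the lowest value: without ALP replicate 2, EILP_KO vs ALP was 5.32, and in batch 1 alone, with 1 ALP library, it was 3.91 and did not pass (adjusted p = 0.102). The EILP_KO call was lost without ALP replicate 3 or either EILP_KO library (adjusted p = 0.0613, 0.114 and 0.258), the EILP_WT call without EILP_WT replicate 3 (adjusted p = 0.0752), and the c-EILP call without c-EILP replicate 3 (adjusted p = 0.062). In fits of ALP with 1 other group, no Il2rb difference from ALP passed (limma adjusted p from 0.11 to 0.322). None passed in batch 2 alone either, where each other group has 1 library. The differences there were 11.33 in EILP_WT, 8.97 in c-EILP, 9.29 in EILP_KO and 10.48 in ILCP.

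After ALP the Il2rb levels were close. EILP_KO differed from EILP_WT by -0.85 (95% interval -4.19 to 2.49, adjusted p = 0.942), and c-EILP from s-EILP by 0.52 (95% interval -2.88 to 3.91, adjusted p = 1). ILCP differed from EILP_WT by 0.38 (95% interval -2.96 to 3.72) and from c-EILP by 1.14 (95% interval -2.20 to 4.48). The order of means was ALP (-0.43), EILP_KO (7.09), s-EILP (7.27), c-EILP (7.38), EILP_WT (8.15) and ILCP (8.32). The intervals are wide, so these values do not show equal levels.

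NK cells express Il2rb, and their markers were read beside it. Of 8 NK markers 7 had a row. On the linear scale, on which each library sums to between 998697 and 999292, they summed to 97.1 to 185 in the ALP libraries, 244 to 268 in s-EILP, 280 to 351 in c-EILP, 212 to 779 in EILP_WT, 276 to 426 in EILP_KO and 553 to 607 in ILCP. At the lowest value in every library of a group were Ncr1, Eomes and Gzma in ALP and Ncr1 in s-EILP. In c-EILP these were Klrb1c, Prf1 and Klre1, in EILP_KO Ncr1, Klrb1c, Gzma and Klre1, and in ILCP Gzma and Prf1. EILP_WT had none. The 5 mast cell and basophil markers, all with a row, also summed lower in ALP (13.3 to 39.6) than in s-EILP (1100 to 1130), c-EILP (1130 to 1530), EILP_WT (581 to 824), EILP_KO (366 to 518) and ILCP (89.9 to 312). Of them Ms4a2 was at the lowest value in both s-EILP libraries. The part of either marker list in the Il2rb result was not tested.

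Il21r, the IL-21 receptor chain, was the member at the lowest value in ILCP. It was 5.98, 5.95 and 5.77 in ALP, 5.12 and 5.07 in s-EILP, and 3.54, 4.79 and 4.82 in c-EILP. It was 4.64, 4.65 and 1.75 in EILP_WT, 4.96 and 4.53 in EILP_KO, and at the lowest value of the library, -4.55 and -4.54, in both ILCP libraries. No library of another group had it there; the lowest of them was EILP_WT replicate 3, the library with the most genes at the lowest value.

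Il21r fell in ILCP against EILP_WT, c-EILP and ALP (adjusted p = 0.000224, 0.000141 and 2e-05). Within batch 2 alone, which holds only replicate 2 of ILCP, these 3 differences were also falls but did not pass. Fits of 2 groups lost the calls from EILP_WT and c-EILP (limma adjusted p = 0.201 and 0.0936). From ALP onward every EILP library lay below the ALP libraries, by -1.20 in s-EILP (SE 0.96, adjusted p = 0.823), -1.71 in c-EILP (SE 0.81, adjusted p = 0.337), -2.42 in EILP_WT (SE 0.81, adjusted p = 0.149) and -1.25 in EILP_KO (SE 0.89, adjusted p = 0.651), and none of these passed. EILP_KO and EILP_WT overlapped and differed by 1.16 (95% interval -0.77 to 3.10, adjusted p = 0.741). The order of means was ILCP, EILP_WT (3.68), c-EILP (4.38), EILP_KO (4.74), s-EILP (5.09) and ALP (5.90), in which EILP_WT overlapped c-EILP and c-EILP overlapped EILP_KO.

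Il4ra, the IL-4 and IL-13 receptor chain next to Il21r on chromosome 7, did not pass in any of the 9 comparisons. It was 7.65, 7.30 and 7.49 in ALP, 7.76 and 7.04 in s-EILP, 6.88, 6.67 and 6.06 in c-EILP, and 7.34, 7.42 and 5.33 in EILP_WT. The EILP_KO libraries had 7.75 and 7.30, and the ILCP libraries 5.81 and 6.62. The ILCP and c-EILP libraries lay below every ALP library, and those of EILP_KO overlapped them.

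The Il4ra differences from ALP were -1.36 in ILCP (SE 0.47, adjusted p = 0.0797), -1.14 in c-EILP (SE 0.43, adjusted p = 0.206) and -0.06 in EILP_KO (SE 0.47, adjusted p = 0.991). ILCP vs ALP passed without EILP_WT replicate 3 (-1.29, limma adjusted p = 0.0216). It was -2.26 without ILCP replicate 2 and -1.83 in batch 1 alone, fits in which ILCP is replicate 1 only. The difference of c-EILP from ALP passed in a fit of these 2 groups alone (-1.1, adjusted p = 0.0456). In order of mean the groups ran ILCP (6.22), c-EILP (6.54), EILP_WT (6.70), s-EILP (7.40), ALP (7.48) and EILP_KO (7.52), and each neighbour in that order overlapped the next. Il21r and Il4ra had a Pearson r of 0.59 over the 15 libraries, given as a description.

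The partner chains and ligands of these receptors gave 1 call, a rise from ALP to ILCP, where 5.56% of all tested genes rose. The partners Il9r, Il15ra, Crlf2 and Il13ra1 all had rows. Il9r, the IL-9 receptor chain, was at the lowest value in every ALP library and 4.15 and 4.17 in ILCP, and rose (limma adjusted p = 0.0418). In the EILP groups Il9r was scattered. It was 2.73 in s-EILP replicate 2, -0.07 and 3.32 in c-EILP replicates 2 and 3, 5.54 in EILP_WT replicate 3 and 2.79 in EILP_KO replicate 2, and at the lowest value in the other libraries of these groups. Il15ra, the chain that presents IL-15, was 4.3 and 3.12 in ILCP and -4.6, 3.48 and 3.39 in ALP (limma adjusted p = 0.509). Crlf2, the partner of the IL-7 receptor alpha chain in the TSLP receptor, stayed between 2.45 and 4.3 over all libraries and passed in no comparison. Of 8 ligand genes only Il15 had a row, at 1.79 to 2.71 in ALP and at the lowest value in all 3 EILP_WT libraries (adjusted p = 0.189).

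Among kinase and STAT genes downstream of the receptors, all calls against ALP were rises. Of 11 measured, 2 rose and 0 fell from ALP to EILP_WT, 1 rose and 0 fell to s-EILP, 4 rose and 0 fell to c-EILP, and 3 rose and 0 fell to ILCP, with medians of 0.61, 0.47, 0.68 and 0.65. Over all tested genes, 1.71% rose and 1.50% fell from ALP to EILP_WT, 0.493% and 0.310% to s-EILP, 1.97% and 2.03% to c-EILP, and 5.56% and 7.86% to ILCP. Jak1, the kinase carried by the chains that pair with the gamma chain, was 9.05, 8.78 and 8.93 in ALP. It was 9.76 and 9.81 in s-EILP, 9.86 to 10.04 in c-EILP, 9.49, 9.93 and 10.17 in EILP_WT, and 10.28 and 10.7 in ILCP. All of these lay above the ALP libraries. Jak1 rose by 1.00 in EILP_WT (SE 0.16, adjusted p = 0.00525), 0.98 in s-EILP (adjusted p = 0.0345), 1.11 in c-EILP (adjusted p = 0.00249) and 1.6 in ILCP (adjusted p = 0.000123). In EILP_KO Jak1 was 9.18 and 9.40.

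Jak3, the kinase carried by the gamma chain, passed in no comparison and ran from 6.56 to 7.93. Stat5a and Stat5b encode the STAT proteins that IL-2, IL-7 and IL-15 activate. Stat5a rose from ALP to EILP_WT by 1.06 (SE 0.24, adjusted p = 0.0342) and to c-EILP by 1.66 (SE 0.24, adjusted p = 0.00248), and fell by 1.02 from c-EILP to ILCP (SE 0.26, adjusted p = 0.0358). Stat5b rose from ALP to c-EILP by 0.96 (SE 0.20, adjusted p = 0.0179). It was 7.31 and 7.48 in EILP_KO and 8.30, 8.09 and 8.38 in EILP_WT, a difference that did not pass. Stat3 rose from ALP to c-EILP and ILCP, Jak2 from ALP to ILCP by 1.65, and Stat4, which IL-12 activates, rose by 2.86 from EILP_WT to ILCP (SE 0.57, adjusted p = 0.0102). In EILP_KO 0 of the 11 passed by limma against EILP_WT or ALP, with 3 and 2 at an unadjusted p under 0.05. Of all 12572 tested genes, 0.0477% rose and 0.0557% fell against EILP_WT, and 0.605% and 0.724% against ALP. An unadjusted p under 0.05 was found for 1094 and 1557 of them.

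**Figure D4:**
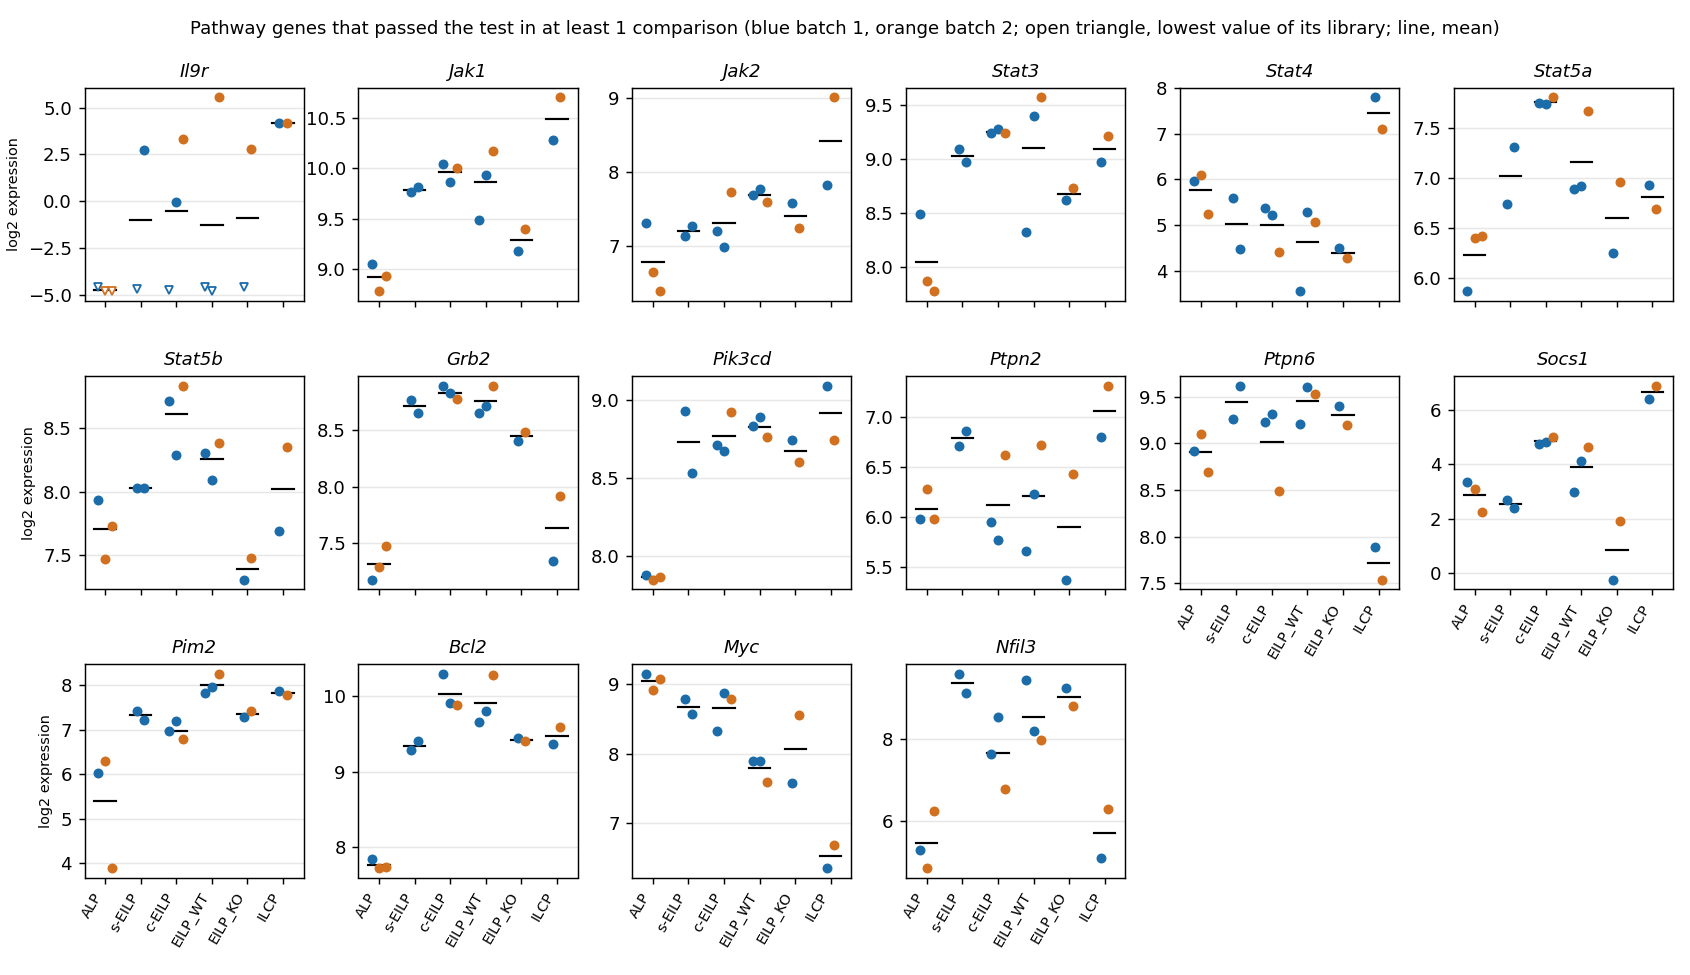
Log2 expression (y axes, scaled per panel) of the 16 pathway genes that passed in at least 1 of the 9 comparisons, by group (x axes). Points are libraries coloured by batch, open triangles are lowest values and lines are means. Jak1, Grb2, Pik3cd and Bcl2 lie lower in ALP than in the EILP groups, Socs1 is highest in ILCP, and Ptpn6 and Myc are lowest there.

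Adaptor and phosphatase genes moved in both directions. Of 12 measured, 2 rose and 0 fell from ALP to EILP_WT, where 1.71% of all tested genes rose and 1.50% fell. From EILP_WT to ILCP, 0 rose and 2 fell (2.61% and 4.34% of all genes). Grb2, an adaptor that links receptors to the Ras pathway, rose from 7.31 ± 0.15 in ALP to 8.76 ± 0.12 in EILP_WT (adjusted p = 0.000177) and to 8.45 ± 0.06 in EILP_KO (adjusted p = 0.00311), and fell to 7.63 ± 0.40 in ILCP (adjusted p = 0.00089 against EILP_WT). Pik3cd, the leukocyte PI3-kinase subunit, rose from 7.87 ± 0.01 in ALP to 8.82 ± 0.07 in EILP_WT (adjusted p = 0.00452) and to 8.92 ± 0.25 in ILCP. Ptpn6, which encodes the phosphatase SHP-1, fell by 1.70 from EILP_WT to ILCP (SE 0.22, adjusted p = 0.000798).

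Feedback inhibitors and targets of the pathway included both gains and losses. Of 17 measured, 3 rose and 1 fell from ALP to EILP_WT (median 0.40), where 1.71% of all tested genes rose and 1.50% fell. From ALP to ILCP, 3 rose and 1 fell (median 0.65, with 5.56% and 7.86% of all genes). From EILP_WT to ILCP, 0 rose and 2 fell (median -0.15, with 2.61% and 4.34%). Bcl2, the survival gene downstream of IL-7, was 7.85, 7.73 and 7.74 in ALP and between 9.28 and 10.29 in all other libraries. It rose in all 5 comparisons with ALP, EILP_KO included (1.66, SE 0.18, adjusted p = 0.000833). Of the suppressors of cytokine signalling, Socs1 rose from ALP to ILCP by 3.86 (SE 0.77, adjusted p = 0.00679). Socs1 was 3.0, 4.12 and 4.64 in EILP_WT and -0.24 and 1.93 in EILP_KO, without overlap (-3.17, SE 0.77, adjusted p = 0.251). Cish, Socs2 and Socs3 passed in no comparison. In EILP_KO vs EILP_WT they differed by 5.93, 0.47 and -5 (limma adjusted p = 0.57, 0.999 and 0.552), so Cish went the other way from Socs1. Cish was 4.42 and 3.76 in EILP_KO and 3.67 in EILP_WT replicate 2, and at the lowest value in EILP_WT replicates 1 and 3. Myc fell in EILP_WT against ALP by 1.19 and in ILCP against ALP by 2.49 (adjusted p = 0.0182 and 8.8e-05). Nfil3, a factor that ILC progenitors need, rose from ALP to EILP_WT by 2.98 and fell from there to ILCP by 2.79 (adjusted p = 0.0104 and 0.0135).

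Over the 45 pathway genes with a row, 16 passed in at least 1 comparison and 29 in none. The share of all tested genes that passed in at least 1 comparison was not counted, so these numbers have no background. In ILCP against ALP, 9 rose and 2 fell, where 5.56% of all tested genes rose and 7.86% fell. From ALP to EILP_WT 7 rose and 1 fell (1.71% and 1.50% of all tested genes). To c-EILP 8 rose and 0 fell (1.97% and 2.03%). From ALP to EILP_KO 4 rose and 0 fell (0.605% and 0.724% of all genes): Grb2, Pik3cd, Bcl2 and Nfil3. In EILP_KO vs EILP_WT and in c-EILP vs s-EILP 0 of the 45 passed by limma, with 10 and 8 at an unadjusted p under 0.05. Over all 12572 genes tested, 1094 and 647 had an unadjusted p under 0.05, and 0.0477% rose and 0.0557% fell in the former comparison and 0 passed in the latter. Myeloid markers, read beside the Tcf7 comparison, summed to 4440 to 5600 in EILP_KO and 595 to 4040 in EILP_WT on the linear scale (7 of 8 with a row, none at the lowest value throughout). Their part in the values of Il7r and Il2rg there was not tested.

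Over the 15 libraries, the genes most like each member were named by Pearson r among 9720 genes, with the shared groups and libraries in view. Those of Il2rg were Rftn1 (r = 0.963), Lpar6 (r = 0.962) and Trp53inp1 (r = 0.93). Those of Il2rb were Xdh (r = 0.952), Myh9 (r = 0.934) and Rab37 (r = 0.93), and those of Il7r were Csrnp1 (r = 0.944), Topors (r = 0.92) and Gimap8 (r = 0.901). Il21r had Sh2d5 (r = 0.99), Il12a (r = 0.988) and Myb (r = 0.985). Il12a, an IL-12 subunit, went from 7.32 ± 0.42 in ALP to the lowest value in both ILCP libraries, and Myb, a progenitor transcription factor, from 8.97 ± 0.15 to 6.2 in both. Il4ra had Tmem229b (r = 0.901), Elp5 (r = 0.899) and Vimp (r = 0.877). Among the members themselves, Il2rg and Il21r had r = -0.89 and Il2rg and Il7r r = 0.63. Il21r and Sh2d5 were also at the lowest value in both ILCP libraries, Il7r in EILP_WT replicate 1 and Il2rb in ALP replicate 2. Such libraries weigh heavily in r, which was not computed without them.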

How the data were processed

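Per the submitters' processing notes, bcl2fastq 2.17, STAR 2.5.2b, RSEM 1.2.23 and limma were used with build mm10. The SMARTer low-input and Nextera XT kits were used, per the labels. The deposited table holds log2 values that the authors brought to nearly 1 distribution, as read from the values. Counts were not analysed here, so depth is unknown and no detection limit is given. A further 24 columns had no name or values.

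One limma model (3.58.1, R 4.3.3; group and labelled batch as terms, intensity trend) was fitted to all 15 libraries and to genes that reached 0 on the log2 scale in 2 or more libraries. P-values were adjusted by Benjamini-Hochberg per comparison, and a call is an adjusted p under 0.05. The fit was tested on simulated data. Members and lists were chosen with earlier results of these data known. Genes named are all members, called genes of 5 pathway lists, chromosomal neighbours, gate genes, and the 3 genes most correlated with each member among those with a highest group mean of at least 3. Uncalled pathway genes named (such as Jak3, Crlf2 and Cish) were chosen after their values were seen. For marker sums, 2 was raised to each value and lowest values were counted as 0. Alternatives left out each library and changed the batch term, filter, normalization, lowest values, variance model and samples.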

Additional observations from a re-analysis of the deposited data

How the results depend on the processing

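Leaving out 1 library at a time, the number of the 5 members that passed limma's adjusted threshold ran from 0 to 1 in EILP_WT vs ALP, s-EILP vs ALP and EILP_KO vs EILP_WT, from 0 to 2 in c-EILP vs ALP and EILP_KO vs ALP, from 2 to 3 in ILCP vs EILP_WT and ILCP vs c-EILP, from 3 to 4 in ILCP vs ALP, and stayed at 0 in c-EILP vs s-EILP. The calls over all genes moved too: from 404 to between 171 and 380 in EILP_WT vs ALP, from 101 to between 20 and 110 in s-EILP vs ALP, from 503 to between 256 and 544 in c-EILP vs ALP, from 0 to between 0 and 7 in c-EILP vs s-EILP, from 874 to between 643 and 788 in ILCP vs EILP_WT, from 932 to between 509 and 1068 in ILCP vs c-EILP, from 1687 to between 1040 and 1874 in ILCP vs ALP, from 13 to between 2 and 53 in EILP_KO vs EILP_WT and from 167 to between 93 and 198 in EILP_KO vs ALP. The libraries left out were those of the 2 groups compared and, after the values were seen, EILP_WT replicates 1 and 3. The 3 in ILCP vs c-EILP and the 2 in EILP_KO vs ALP came only without EILP_WT replicate 1. The count for s-EILP vs ALP was 1 without the batch term, with a pseudocount of 1 and with values below 0 set to 0. That for EILP_KO vs ALP was 2 under the last 2 of these settings and 0 with no intensity trend, in fits of the 2 groups alone and in either batch alone. That for c-EILP vs ALP was 2 with sample quality weights. In fits of the 2 groups alone it was 0 for EILP_WT vs ALP, ILCP vs EILP_WT and ILCP vs c-EILP, and in batch 2 alone 0 for these, c-EILP vs ALP and ILCP vs ALP; fewer libraries enter those fits. For the other settings the cause was not tested. Calls over all genes are given here only for libraries left out. The member counts under the other settings therefore have no background and say nothing about the receptors in particular.

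Same-numbered libraries did not deviate together (0 of 33 pairs with a correlation over 0.1). Libraries of the same batch did not either (median correlation 0 with different numbers and -0.004 with the same number). The check did not pick up the labelled batch, so it cannot tell whether the numbers pair the libraries. With the replicate number as a block in place of the batch term, the count was 0 for EILP_KO vs ALP, again without the calls over all genes. Il2rb in c-EILP vs s-EILP was then -0.05, and Il4ra in ILCP vs ALP passed (-1.57, limma adjusted p = 0.0496).

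All reversals of direction were of differences that did not pass. Il4ra in EILP_KO vs ALP was 0.05 without the batch term, 0.10 in batch 1 alone, and 0.05, 0.03 and 0.01 without ALP replicate 3, EILP_KO replicate 1 and EILP_WT replicate 3. Il2rg in s-EILP vs ALP was 0.18 in batch 1 alone and 0.16 without ALP replicate 2. In batch 2 alone, Il2rb in ILCP vs EILP_WT was -0.84, and Il4ra was 1.29 in ILCP vs EILP_WT and 0.56 in ILCP vs c-EILP. Without ILCP replicate 1 those Il4ra values were 0.52 and 0.68, and Il2rb in ILCP vs EILP_WT was -0.18 without ILCP replicate 2 and -0.49 without EILP_WT replicate 1. Il2rb in EILP_KO vs EILP_WT was 0.37 without EILP_WT replicate 3. In c-EILP vs s-EILP, Il7r was -0.04 without s-EILP replicate 1 and -0.40 without c-EILP replicate 1, and Il21r 0.10 without the latter. Il7r in c-EILP vs ALP was 0.43 without c-EILP replicate 3. Over the libraries left out for each comparison, these values ranged from -0.20 to 0.16 for Il2rg in s-EILP vs ALP. The ranges were -1.18 to 0.43 for Il7r in c-EILP vs ALP and -0.23 to 0.05 for Il4ra in EILP_KO vs ALP. For Il2rb they were -1.72 to 0.37 in EILP_KO vs EILP_WT and -0.49 to 1.60 in ILCP vs EILP_WT. Il4ra ranged from -1.18 to 0.52 in ILCP vs EILP_WT and from -1.03 to 0.68 in ILCP vs c-EILP. In c-EILP vs s-EILP, the ranges were -0.40 to 0.93 for Il7r and -0.93 to 0.10 for Il21r. Of the single-member values, 580 kept direction and call when another choice was changed, 12 gained and 21 lost a call and 7 reversed; with a library left out, 264 kept both, 13 gained, 5 lost and 13 reversed. Fits without EILP_WT replicate 1 or 3 in comparisons that do not use that group were chosen after seeing the data. The s-EILP libraries are all in batch 1, so that group has no value in batch 2. Depth cannot be read from these values.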

Other observations

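The genes beside the receptors on the chromosome were read as a description. Nsmce1, which encodes a subunit of the SMC5/6 complex and lies 60523 bases from Il4ra on the other side from Il21r, fell from 7.44 ± 0.13 in ALP to 6.27 ± 0.13 in EILP_WT (limma adjusted p = 0.0185), 6.04 ± 0.49 in c-EILP (adjusted p = 0.0061) and 6.03 ± 0.34 in ILCP (adjusted p = 0.00453). Gtf3c1, which lies 7383 bases beyond Il21r, passed in no comparison and was 5.42 ± 1.44 in ILCP, where Il21r was at the lowest value. Med12, a Mediator subunit gene 5774 bases from Il2rg, rose from 5.20 ± 0.10 in ALP to 6.95 ± 0.25 in ILCP (adjusted p = 0.0357). C1qtnf6, which lies 28074 bases from Il2rb, was -0.98 ± 1.72 in ALP and 3.52 ± 0.26 in ILCP and passed in no comparison. Spef2 and Capsl, which flank Il7r, passed in no comparison. Spef2 was at the lowest value in 1 EILP_KO and 1 EILP_WT library, and Capsl in every library of both groups.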
